A study of Mus musculus with 4 samples.

Results

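The mRNA levels of 10 regulators of energy metabolism were followed in heart muscle cells after pressure overload: the nuclear receptors Ppara, Ppard, Pparg, Esrra, Esrrb, Esrrg, Rxra and Rxrg, and the coactivators Ppargc1a and Ppargc1b. They were chosen by gene symbol, and all 10 were found among the 22322 genes of each library. Cardiomyocytes had been isolated by Langendorff perfusion from male mice that had a sham operation or transverse aortic constriction (TAC, a narrowing of the aorta which makes the left ventricle pump against a raised pressure) at 2 months of age. The study's methods place echocardiography 14 weeks after TAC and call the mice used for cells 14 weeks old, and the sources used here do not name the strain. There were 2 sham and 2 TAC libraries, each from a share of the myocytes of a separate heart, and no genetic change was stated for either group.

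The peroxisome proliferator-activated receptors (PPARα, PPARδ and PPARγ) are transcription factors switched on by fatty acids and their derivatives. They bind DNA as pairs with a retinoid X receptor (RXRα or RXRγ here) and turn on genes for fatty acid uptake, storage and oxidation. The oestrogen-related receptors (ERRα, ERRβ and ERRγ) have no known natural hormone, bind an extended form of the same DNA core, and turn on genes of the citric acid cycle, the respiratory chain and ATP synthesis. PGC-1α (Ppargc1a) and PGC-1β (Ppargc1b) do not bind DNA themselves but dock on PPARs and ERRs and recruit the machinery of transcription. Heart muscle burns mostly fatty acids, and this network is known as the main control of that supply.

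The DNA core bound by these receptors is AGGTCA, and it lay in the promoter windows of 3 of the 9 regulators found in the RefSeq promoter table (GRCm38.p6, 250 bases before to 50 bases after each start). The matches are printed as examples of these letters in the promoters of the regulators themselves, with the core in capitals.
Rxrg, chr1:167618169-167618190, plus strand, 88 bases upstream: gggttgaaAGGTCAgctgaaag
Rxra, chr2:27709236-27709257, plus strand, 48 bases upstream: ggcaggaaAGGTCAgtcactct
Rxra, chr2:27709197-27709218, plus strand, 87 bases upstream, core on the other strand: aatgggtgTGACCTgagtaatg
Pparg, chr6:115361108-115361129, plus strand, 28 bases upstream: gccgcctcAGGTCAgagtcgcc
Pparg, chr6:115362332-115362353, plus strand, 9 bases upstream of another start: acgcgaggAGGTCAagaagggg
On either strand, AGGTCA was found in 4 of the 17 windows of these regulators and in 16.3% of all 32851 windows. The first 2 sequences also hold AAGGTCA, an extended form which contains the core and was present in 4.72% of all windows. No longer element of ERRs was searched. The element that PPAR-RXR pairs prefer, AGGTCA followed after any single base by AGGTCA again, was in none of the 17 windows and in 0.04% of all. The site of MEF2, a muscle transcription factor, was searched on both strands as CTA and TAG with any 4 bases between them, and matched in the window of Esrrg alone among the regulators and in 3.69% of all windows.
Esrrg, chr1:187608976-187609001, plus strand, 22 bases upstream: aaactttgCTATTTATAGtctacgcc
The cAMP element TGACGTCA matched none of the 17 windows and 1.79% of all. These are matches of letters, and binding was not measured.

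The libraries held 24237777 to 32118323 expected counts. The 4 TAC response genes checked the labels: Myh7 (the fetal heavy chain of heart myosin) rose by 4.11 on the log2 scale, Acta1 by 2.65, Nppb by 1.88 and Nppa by 1.46, each with both TAC libraries above both sham libraries. Without TAC 1 the rise of Myh7 was 3.47, and Nppa did not pass (1.27, adjusted p = 0.0614). The cardiomyocyte gene Myh6 had 23200 to 29440 CPM across the libraries. CPM are counts scaled to a common library size, here with the TMM factors of edgeR, which centre the gene ratios between libraries. TAC 1 stood apart from the other libraries in its mitochondrial share, 47.4% of counts against 39.8% to 40.9%. The log2 fold changes of all genes had a median of -0.01 with TMM scaling and of -0.20 with scaling by library totals, so a change of small size can switch direction between these scalings.

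All 10 regulators passed the filter on low counts, and 1 of them, Ppargc1b, was called at a Benjamini-Hochberg adjusted p under 0.05 by the edgeR quasi-likelihood test. Over all 12499 genes tested, 5.01% were called and 2.43% were called lower in TAC. The balance of directions depended on the scaling, with 304 of 626 calls lower by TMM, 423 of 528 by library totals and 450 of 638 by totals without mitochondrial genes. An unadjusted p under 0.05 was found for 3 regulators (Ppargc1a, Ppargc1b and Rxra) and for 27.5% of all genes. The CPM of the groups did not overlap for 6 of the 10, against 60.1% of all genes, of which 4 were higher in TAC (29.8% of all genes) and 2 were lower (30.3%). DESeq2 called 2 regulators, Ppargc1a and Ppargc1b, and 8.34% of the 11045 genes to which it gave an adjusted p. The share of regulators that were apart was thus close to that over all genes. The median log2 fold change of the regulators was 0.08 with TMM scaling and -0.11 with total-count scaling.

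**Figure D1:**
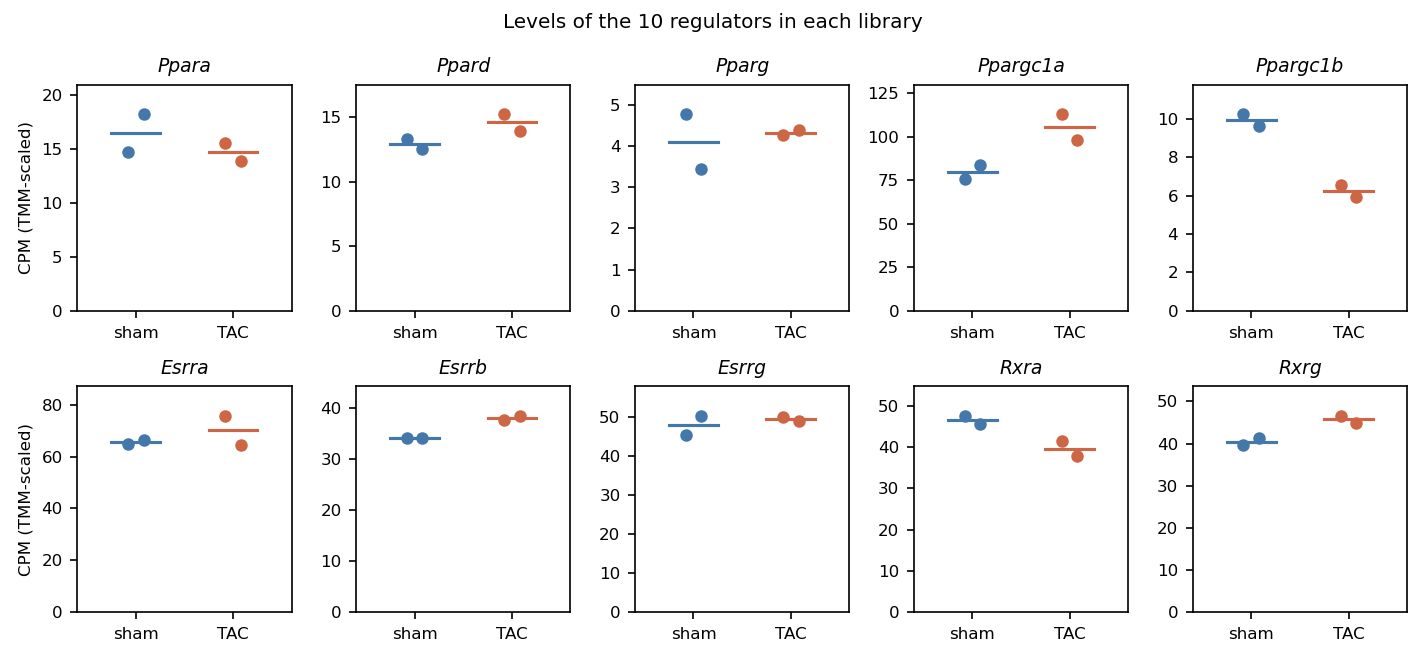
Each panel plots the CPM (TMM-scaled, axis from 0) of a regulator in the 2 sham and the 2 TAC libraries as points, with the group mean as a line. Ppargc1b lay at 9.63 and above in sham and at 6.53 and below in TAC, while Ppargc1a was higher in both TAC libraries and the points of Ppara, Pparg, Esrra and Esrrg overlapped.

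The coactivators had changes of opposite sign. Ppargc1b, the β form of PGC-1, fell to 0.628 of its sham level, and Ppargc1a, the α form, was 1.32 times its sham level without passing the adjusted test. Ppargc1b, a gene of chromosome 18, had 324 and 277 counts in the sham libraries and 182 and 145 in the TAC libraries, in the order of their replicate numbers. Its CPM was 10.2 and 9.63 in sham (9.93 ± 0.434, SD, n = 2) and 6.53 and 5.93 in TAC (6.23 ± 0.423, SD, n = 2). Both TAC libraries lay below both sham libraries, and this also held for the deposited FPKM (3.07 and 2.74 against 1.55 and 1.64) and for counts scaled by library totals. The log2 fold change of Ppargc1b was -0.67 ± 0.14 (SE), with an adjusted p of 0.0441 and a 95% interval of 0.499 to 0.789 for the fold itself. The direction was the same in every alternative, with a log2 fold change of -0.74 to -0.60 when a library was left out, but the adjusted p rose above 0.05 each time. Leaving out a library leaves 1 in its group, which is then assumed to vary like the other group. The adjusted p was 0.125 and 0.0681 after the removal of sham 1 and sham 2, and 0.0811 and 0.0652 after that of TAC 1 and TAC 2. The call was also lost with the replicate number as a block (adjusted p = 0.0613) and by limma on FPKM (0.0825 and 0.0931 at pseudocounts of 1 and 0.1), but not by limma at a pseudocount of 1 on genes with a mean FPKM over 2 (0.0486).

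Ppargc1a (chr5:51454250-51567726, minus strand) had 2393 and 2416 counts in sham and 3148 and 2394 in TAC. Its CPM was 75.6 and 84.0 in sham (79.8 ± 5.89, SD, n = 2) against 113 and 97.9 in TAC (105 ± 10.6, SD, n = 2). Both TAC libraries were above both sham libraries, also by library totals (83.0 and 87.3 against 98.0 and 98.8) and by FPKM (15.2 and 15.2 against 19.8 and 18.6). The log2 fold change was 0.40 ± 0.10 (SE), with a 95% interval of 0.18 to 0.63 and an adjusted p of 0.0553. Over the alternatives it lay between 0.00765 and 0.300. It was 0.0121 with DESeq2, 0.0330 without sham 2 and 0.0177 without TAC 2, but 0.142 without sham 1 and 0.193 without TAC 1. Scaled by library totals, Ppargc1a had a log2 fold change of 0.21 (adjusted p = 0.300). The counts and FPKM of Ppargc1a imply a transcript length of 5462 and 5735 bases in sham and of 4963 and 5307 bases in TAC. The implied length, shorter in both TAC libraries, dropped by 8.28% on average. Its spread of 15.6% over the libraries was reached by 4.07% of the 2310 genes with at least 1000 counts in each library.

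The ratio of the α to the β coactivator does not depend on how libraries are scaled. Counts of Ppargc1a were 7.39 and 8.72 times those of Ppargc1b in sham 1 and sham 2, and 17.3 and 16.5 times in TAC 1 and TAC 2. The ratio rose from 8.05 ± 0.945 to 16.9 ± 0.556 (SD, n = 2 each), which is 2.10-fold, with no overlap. An exact two-sided permutation test gave p = 0.333, the smallest that 2 against 2 libraries allow, and 0.444 after adjustment over the 4 ratios computed. These ratios were chosen after values of the genes had been seen. Per length, Ppargc1b made up 16.8% and 15.3% of the summed FPKM of the PGC-1 pair in sham and 7.28% and 8.10% in TAC.

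**Figure D2:**
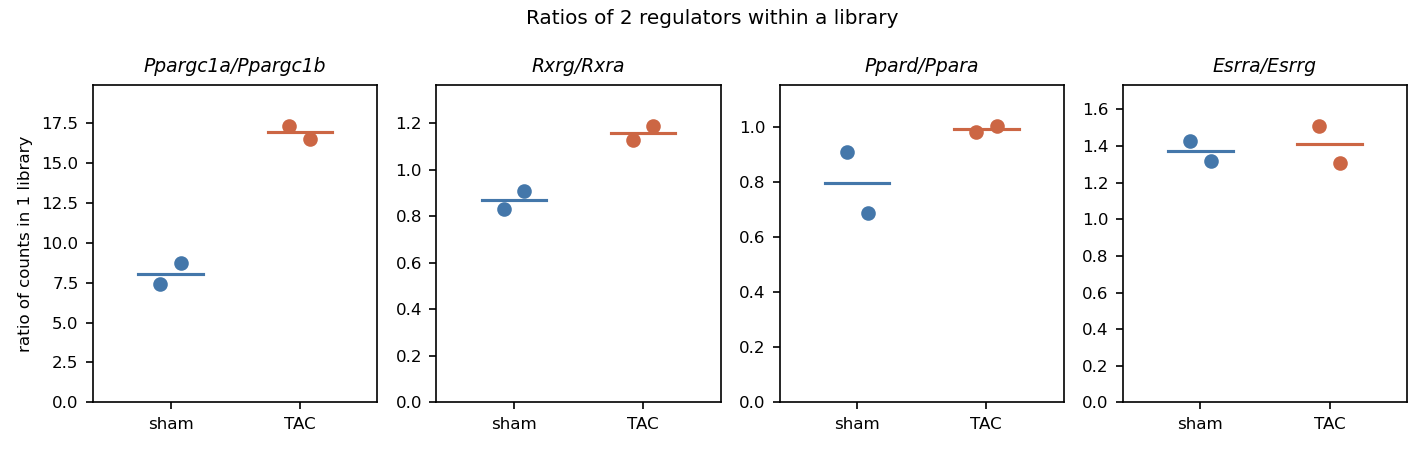
Each panel plots the ratio of the counts of 2 regulators in the same library (axis from 0), with points for libraries and lines for group means. The ratio of Ppargc1a to Ppargc1b rose from between 7.39 and 8.72 in sham to between 16.5 and 17.3 in TAC, and that of Esrra to Esrrg overlapped between groups.

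Beside the fall of Ppargc1b, the summed CPM of the marker lists of 4 other cell types was lower in both TAC libraries. In bulk RNA, fewer cells of a type and less RNA per cell cannot be told apart. All 15 endothelial genes had a negative log2 fold change, and their summed CPM was 555 to 697 in sham and 342 to 470 in TAC. The same held for all 15 fibroblast genes (391 to 565 in sham, 227 to 311 in TAC), all 15 macrophage genes (79.6 to 154 and 42.9 to 79.3) and all 12 mural genes (766 to 804 and 444 to 585). Called lower by edgeR were 3 endothelial, 4 fibroblast, 0 macrophage and 2 mural genes, where 2.43% of all genes were called lower. At an unadjusted p under 0.05 there were 12 endothelial, 9 fibroblast, 7 macrophage and 9 mural genes (27.5% of all genes), and DESeq2 called 7, 4, 2 and 2 (8.34% of all genes). Of the defining markers, Pecam1 (endothelium) had 62.7 to 82.0 CPM in sham and 38.2 to 56.1 in TAC. Col1a1 (fibroblasts) had 11.8 to 18.8 and 7.64 to 10.7. Csf1r (macrophages) had 10.7 to 20.5 and 5.52 to 9.94, and Rgs5 (mural cells) had 207 to 221 and 104 to 159. EdgeR called none of these, with adjusted p of 0.0618 to 0.115, but called Cdh5 (endothelium, 0.0149) and Pdgfrb (mural cells, 0.0427). The mural marker Cspg4 overlapped, with 12.1 and 10.6 CPM in sham and 8.64 and 11.8 in TAC. The haemoglobin gene Hbb-bs, of red blood cells, overlapped (33.6 to 35.5 and 20.6 to 55.7 CPM), and of 5 red blood cell genes tested none was called. Summed cardiomyocyte genes overlapped too, at 88340 to 97820 CPM in sham and 93510 to 98690 in TAC. Of the 15 cardiomyocyte genes 8 were higher and 3 lower in both TAC libraries, edgeR called 2, both higher, and DESeq2 called 8. Over all genes these shares were 29.8% and 30.3% for genes apart, 5.01% for edgeR and 8.34% for DESeq2. The part of these shifts in the change of any regulator was not tested.

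None of the oestrogen-related receptors passed the test, and the ratio of Esrra to Esrrg counts overlapped between the groups. Esrra, the main partner of PGC-1α (chr19:6910977-6921813, minus strand), had 65.0 and 66.5 CPM in sham (65.7 ± 1.04, SD, n = 2) and 75.8 and 64.4 in TAC (70.1 ± 8.04, SD, n = 2). TAC 1 was the highest library and TAC 2 the lowest, so the groups overlapped. Its log2 fold change was 0.09 ± 0.09 (SE; 95% interval -0.12 to 0.31, adjusted p = 0.545) with TMM scaling and -0.10 with total-count scaling, the scaling at which both TAC libraries lay below both sham libraries. Exons of Esrra overlap those of Trmt112 on the other strand, and the sources used here do not say whether the counting used strand. Trmt112 had 7.93 to 9.61 CPM, against at least 64.4 for Esrra.

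Esrrb (chr12:86361117-86521628, plus strand), the β form, had 34.2 and 34.3 CPM in sham (34.2 ± 0.0504, SD, n = 2) and 37.8 and 38.6 in TAC (38.2 ± 0.568, SD, n = 2). The groups were apart on this scale, with a log2 fold change of 0.16 ± 0.08 (SE; 95% interval -0.03 to 0.34, adjusted p = 0.241), but it was -0.03 with total-count scaling and the FPKM overlapped (8.85 and 8.41 against 7.72 and 9.24). Esrrg, the γ form, spans chr1:187608791-188214885 on the plus strand. It had 45.6 and 50.5 CPM in sham (48.0 ± 3.46, SD, n = 2) and 50.2 and 49.2 in TAC (49.7 ± 0.721, SD, n = 2), with both TAC libraries inside the sham range. The log2 fold change of Esrrg was 0.05 ± 0.08 (SE; 95% interval -0.15 to 0.25, adjusted p = 0.737), and it was -0.14 with total-count scaling. The counts of Esrra were 1.43 and 1.32 times those of Esrrg in sham and 1.51 and 1.31 times in TAC, which overlapped (exact permutation p = 1.0, two-sided). By FPKM, Esrra took 65.0% and 65.2% of the summed level of the ERR family in sham and 67.2% and 62.3% in TAC. The upper bounds of the 95% intervals correspond to 1.27 times the sham level for Esrrb, 1.24 times for Esrra and 1.19 times for Esrrg, so rises up to these sizes are within the intervals.

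Among the PPARs no member passed the test. Ppara, the form that drives fatty acid oxidation in heart muscle (chr15:85734983-85802819, plus strand), had 14.7 and 18.2 CPM in sham (16.5 ± 2.51, SD, n = 2) and 15.6 and 13.9 in TAC (14.7 ± 1.18, SD, n = 2). Sham 2 was the highest and TAC 2 the lowest, with sham 1 between the TAC libraries. Its log2 fold change was -0.16 ± 0.14 (SE; 95% interval -0.48 to 0.16, adjusted p = 0.482). By FPKM both TAC libraries were lower (5.20 and 6.13 against 4.48 and 4.68), and without sham 2 the log2 fold change was 0.01.

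Ppard, the widely expressed form (chr17:28232700-28301474, plus strand), had 13.3 and 12.5 CPM in sham (12.9 ± 0.584, SD, n = 2) and 15.2 and 13.9 in TAC (14.6 ± 0.917, SD, n = 2). The TAC libraries were the higher ones on this scale, with a log2 fold change of 0.18 ± 0.12 (SE; 95% interval -0.09 to 0.45, adjusted p = 0.354), but it was -0.02 with total-count scaling and the FPKM overlapped. Counts of Ppard were 0.907 and 0.686 times those of Ppara in sham and 0.979 and 1.00 times in TAC. That ratio was higher in both TAC libraries, by 1.24-fold, with an exact permutation p of 0.333 (two-sided) and 0.444 after adjustment. Sham 1 and TAC 1 differed less than the sham libraries did from each other.

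Pparg, the form that governs fat cells (chr6:115360951-115490399, plus strand), was the least abundant by CPM, with 151 and 99 counts in sham and 119 and 107 in TAC. Its CPM of 4.77 and 3.44 in sham (4.11 ± 0.942, SD, n = 2) enclosed those of 4.27 and 4.38 in TAC (4.32 ± 0.0763, SD, n = 2). The log2 fold change was 0.07 ± 0.22 (SE; 95% interval -0.44 to 0.58, adjusted p = 0.862) with TMM and -0.12 with total-count scaling. Of 10 adipocyte markers 4 had no count in any library, Adipoq and Plin1 among them, and Cfd had 3 counts in TAC 2 and 0 in the others. A count of 0 allows up to 3 counts per library. Of the 3 adipocyte genes tested 2 were called lower, Fabp4 (described with the PPAR targets) and Lipe, against 2.43% of all genes called lower.

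Neither retinoid X receptor passed the adjusted test. The ratio of their counts, chosen after values had been seen, was apart between the groups. Rxra, the widely expressed form (chr2:27676440-27762957, plus strand), had 47.7 and 45.5 CPM in sham (46.6 ± 1.51, SD, n = 2) and 41.4 and 37.8 in TAC (39.6 ± 2.60, SD, n = 2). Both TAC libraries were lower, as they were by FPKM (10.7 and 9.65 against 7.33 and 7.76) and by library totals. The log2 fold change of Rxra was -0.23 ± 0.09 (SE), with a 95% interval of -0.43 to -0.04, an unadjusted p of 0.0270 and an adjusted p of 0.135, which did not pass. It was negative in every alternative, with an adjusted p of 0.0658 to 0.464.

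Rxrg, the form found in muscle (chr1:167598384-167639623, plus strand), had 39.6 and 41.4 CPM in sham (40.5 ± 1.26, SD, n = 2) and 46.6 and 44.8 in TAC (45.7 ± 1.28, SD, n = 2). The groups were apart on this scale, with a log2 fold change of 0.18 ± 0.08 (SE; 95% interval -0.01 to 0.36, adjusted p = 0.198). It was -0.01 when counts were scaled by totals, and the FPKM overlapped (26.3 and 26.1 against 24.6 and 27.5). The ratio of Rxrg to Rxra counts, which needs no scaling, was 0.830 and 0.908 in sham (0.869 ± 0.0553, SD, n = 2) and 1.13 and 1.19 in TAC (1.16 ± 0.0438, SD, n = 2). It was 1.33-fold higher in TAC with no overlap, with an exact permutation p of 0.333 (two-sided, the smallest possible) and 0.444 after adjustment. By FPKM, Rxra held 28.8% and 27.0% of the RXR pair in sham and 23.0% and 22.0% in TAC.

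**Figure D3:**
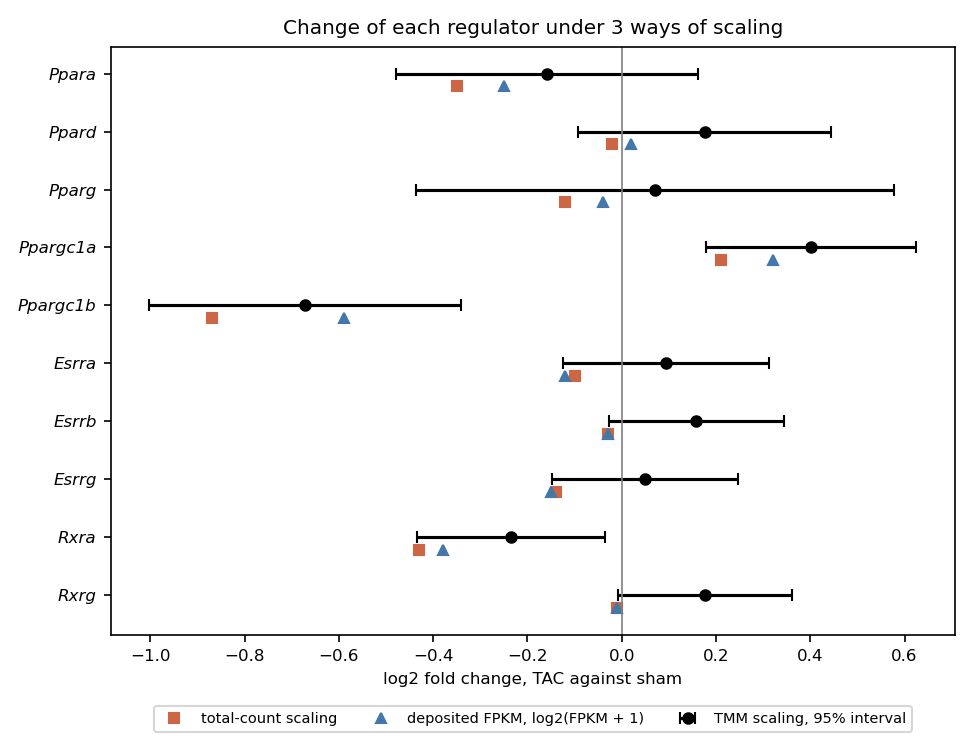
The log2 fold change of TAC against sham is plotted for each regulator, with black points and 95% intervals for TMM scaling, squares for total-count scaling and triangles for limma on log2(FPKM + 1). Ppargc1a stayed above 0 and Ppargc1b, Rxra and Ppara below 0 on all 3 scales, while Pparg, Esrra, Esrrb, Esrrg and Rxrg crossed 0 on both other scales and Ppard with total counts.

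The direction of a change was thus shared by the 3 scalings drawn for Ppargc1a, Ppargc1b, Rxra and Ppara. Total-count scaling shifted the median log2 fold change of all genes by -0.19, and FPKM is also scaled by depth. A shared negative sign was therefore largely given in advance for Ppargc1b, Rxra and Ppara. By library totals the groups were apart for 6 regulators, of which Ppargc1a was higher (8.74% of all genes) and Ppara, Ppargc1b, Esrra, Esrrg and Rxra were lower (47.7% of all genes). By FPKM the same 6 were apart, against 54.1% of all genes.

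Per length, Esrra was the most abundant of the 10 in sham hearts at 34.9 ± 0.177 FPKM, followed by Rxrg at 26.2 ± 0.149 and Ppargc1a at 15.2 ± 0.0212 (SD, n = 2 each). Rxra (10.2 ± 0.714) and Esrrg (10.1 ± 0.276) overlapped and were followed by Esrrb at 8.63 ± 0.311. Lower still were Ppara at 5.67 ± 0.658, Ppard at 4.54 ± 0.0636, Ppargc1b at 2.91 ± 0.233 and Pparg at 2.22 ± 0.573. In TAC the first 3 places were the same, with 32.1 ± 1.37 FPKM for Esrra, 26.1 ± 2.09 for Rxrg and 19.2 ± 0.806 for Ppargc1a. Behind them Esrrg (8.995 ± 0.827) overlapped Esrrb (8.48 ± 1.08), Esrrb overlapped Rxra (7.55 ± 0.304), and Ppard (4.61 ± 0.622) overlapped Ppara (4.58 ± 0.141). Pparg at 2.10 ± 0.191 FPKM was above Ppargc1b at 1.595 ± 0.0636, the reverse of their order in sham. The order depends in part on the length used. With counts divided by the summed length of all annotated exons (GENCODE), Rxrg was above Esrra in sham (18.9 and 18.7 against 16.25 and 15.75) and Ppargc1b above Ppard (mean 2.66 against 1.84). In TAC on that scale Ppargc1a (14.87 and 14.98) overlapped Esrra (15.00 and 14.81), Ppargc1b (1.42 and 1.499) overlapped Pparg (1.255 and 1.495), and Ppard was above Ppargc1b.

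**Figure D4:**
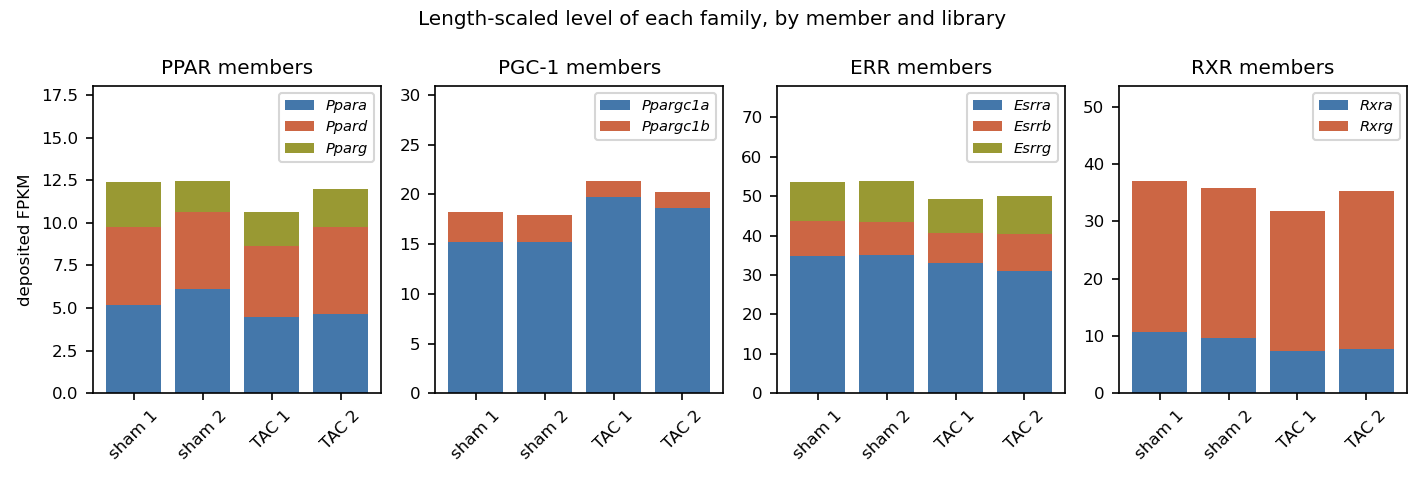
Stacked bars show the deposited FPKM of each family (axis from 0) by member in the 4 libraries. Ppargc1b made up 15.3% to 16.8% of the PGC-1 bar in sham and 7.28% to 8.10% in TAC, and Rxra 27.0% to 28.8% and 22.0% to 23.0% of the RXR bar.

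The receptors need partners and coregulators, and their counts of calls are set beside the shares over all genes, 5.01% by edgeR and 8.34% by DESeq2. Of 12 other genes for RXR and its partner receptors 11 were tested and 0 called, with 0 by DESeq2 and a median log2 fold change of -0.09. Nr4a2, an orphan receptor and early response gene, had 2.43 and 0.904 CPM in sham and 0.502 and 0.286 in TAC (log2 fold change -2.06 ± 0.59, SE, adjusted p = 0.0830). It was -1.17 without sham 1, and -2.59 and called without sham 2 (adjusted p = 0.0115). Nr4a1, of the same kind, had 32.1 and 14.1 CPM in sham and 18.8 and 9.20 in TAC, which overlapped (log2 fold change -0.72, adjusted p = 0.299). It was 0.00 without sham 1 and -1.18 without sham 2, so these values hang on the high level in sham 1. With the replicate number as a block edgeR called Nr4a1 (log2 fold change -0.70, adjusted p = 0.0167). With the crossed pairing, added after seeing the data, Nr4a1 did not pass (-0.67, 0.285). Of 18 coregulators 0 were called by edgeR and 2 by DESeq2, Nrip1 and Tbl1x. Nrip1, a corepressor that opposes PGC-1 at nuclear receptors, had 22.8 and 24.01 CPM in sham and 12.8 and 18.1 in TAC (log2 fold change -0.60 ± 0.16, SE, adjusted p = 0.0715, 0.0236 with DESeq2). Tbl1x, a part of corepressor complexes, had 36.9 and 32.8 CPM in sham and 23.9 and 27.7 in TAC (-0.44 ± 0.11, SE, adjusted p = 0.0629, 0.0442 with DESeq2). Both were lower in both TAC libraries. With 1 library left in a group the calls varied: by edgeR both were called without TAC 2 (adjusted p of 0.00567 and 0.0247), and Nrip1 without sham 1 (0.0455). Without TAC 1 the log2 fold change of Nrip1 was -0.37 (adjusted p = 0.188) and that of Tbl1x -0.33 (0.199), and without sham 1 that of Tbl1x was -0.35 (0.213).

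Upstream regulators of PGC-1, mostly kinases and transcription factors known to act on the Ppargc1a gene or its protein, numbered 19, with 18 tested and 0 called by edgeR or DESeq2. Camkk2, a calcium-dependent kinase that activates AMPK, had 6.005 and 4.90 CPM in sham and 3.55 and 3.52 in TAC (log2 fold change -0.63 ± 0.19, SE, adjusted p = 0.0945). Mef2c, a MEF2 factor, had 56.2 and 61.9 CPM in sham and 48.7 and 44.1 in TAC (-0.35 ± 0.09, SE, adjusted p = 0.0686). It was called with total-count scaling (adjusted p = 0.0379). At an unadjusted p under 0.05 there were 2 of the 11 partner receptors, 3 of the 18 coregulators and 5 of the 18 upstream regulators, against 27.5% of all genes.

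Target genes of the PPARs changed in both directions with TMM scaling, and joint movement was not tested. Of 36 genes 35 were tested, 2 were called lower and 0 higher, against 5.01% of all genes called. Their median log2 fold change was 0.01. The CPM of 10 was higher in both TAC libraries and that of 10 lower, against 29.8% and 30.3% of all genes. With total-count scaling the median of the list was -0.18, where that of all genes was -0.20. On that scale 1 gene was apart higher and 19 lower, against 8.74% and 47.7% of all genes. Fabp4, a fatty acid carrier that capillary endothelium also makes, had 151 and 156 CPM in sham and 67.5 and 91.7 in TAC and fell by 0.95 on the log2 scale (SE 0.13, adjusted p = 0.0149). Cpt1a, the liver form of the enzyme that admits fatty acids to mitochondria, had 43.7 and 45.6 CPM in sham and 21.7 and 30.4 in TAC and fell by 0.78 (SE 0.15, adjusted p = 0.0333). The summed endothelial genes, which were lower in the same libraries, stood at 555 to 697 CPM in sham and 342 to 470 in TAC, and their part in these changes was not tested. Cpt1b, the muscle form of that enzyme, had 529 and 588 CPM in sham against 649 and 648 in TAC (log2 fold change 0.21 ± 0.08, SE, adjusted p = 0.150).

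DESeq2 called 5 of the 35 PPAR target genes, against 8.34% of all genes, Fabp4 and Cpt1a with Ucp2 lower and Pdk4 and Fabp3 higher. The edgeR count of 2 was 4 to 7 with a library left out, and it was 5 without TAC 1, where 301 genes were called over all. Pdk4, a kinase that holds back the oxidation of glucose, had 366 and 377 CPM in sham and 453 and 629 in TAC (log2 fold change 0.54 ± 0.14, SE, edgeR adjusted p = 0.0703). For Pdk4 it was 0.76 without TAC 1 (adjusted p = 0.00676), 0.29 without TAC 2 (0.0866) and 0.37 with total-count scaling (0.261). Fabp3, the fatty acid carrier of heart muscle, had 1709 and 1917 CPM in sham and 2352 and 2226 in TAC (0.34 ± 0.10, SE, edgeR adjusted p = 0.0826). Ucp2, an uncoupling protein, had 19.4 and 15.4 CPM in sham and 7.46 and 13.4 in TAC (-0.75 ± 0.25, SE, edgeR adjusted p = 0.115). It reached -0.90 when sham 2 was left out and -1.22 when TAC 2 was, both called (adjusted p of 0.0472 and 0.00592), but -0.57 without sham 1 and -0.38 without TAC 1 (0.214 and 0.310). Cpt1b, Pdk4, Fabp3 and Ucp2 were chosen after their values were seen. All were apart between the groups in these CPM values, as were 60.1% of all genes.

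Target genes of ERR and PGC-1, mostly enzymes of the citric acid cycle and subunits of the respiratory chain, numbered 34. All were tested, 1 was called, against 5.01% of all genes, and the log2 fold change was positive for 30 of them, with a median of 0.14. The CPM of 25 was higher in both TAC libraries and that of 1 was lower, against 29.8% and 30.3% of all genes. With total-count scaling the median of the list was -0.05, where that of all genes was -0.20, and the groups were apart for 3 higher and 9 lower genes, against 8.74% and 47.7% of all genes. The called gene was Vegfa, which codes for a growth factor of blood vessels and is not an enzyme of energy metabolism. It had 198 and 188 CPM in sham and 358 and 261 in TAC, a rise of 0.68 on the log2 scale (SE 0.14, adjusted p = 0.0400). That call was lost with total-count scaling (adjusted p = 0.0619) and without TAC 1 (0.0528). Cox6a2, a heart and muscle subunit of cytochrome oxidase, was named after its values were seen because DESeq2 called it. It had 848 and 904 CPM in sham and 1098 and 1089 in TAC (0.32 ± 0.08, SE, edgeR adjusted p = 0.0619).

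Clock genes are tied to this network, since PGC-1α is known to work with clock receptors on the Bmal1 gene. Of 17 genes tested 3 were called higher and 3 lower, where 5.01% of all genes were called in either direction, with a median log2 fold change of -0.40. Nr1d2, a clock repressor of the nuclear receptor family, had 83.4 and 98.7 CPM in sham and 48.6 and 55.6 in TAC and fell by 0.80 on the log2 scale (SE 0.11, adjusted p = 0.0121). Nfil3, a repressor of clock output, had 6.04 and 4.52 CPM in sham and 23.2 and 11.8 in TAC (rise of 1.73, SE 0.31, adjusted p = 0.0283). Per3, a clock protein, had 9.23 and 17.0 CPM in sham and 4.38 and 5.69 in TAC (-1.38 ± 0.29, SE, adjusted p = 0.0441). Per3 did not pass without TAC 1 (log2 fold change -1.20, adjusted p = 0.116) or without sham 2 (-0.87, 0.0502). Dbp, an activator of clock output, had 32.8 and 57.7 CPM in sham and 4.81 and 10.8 in TAC (-2.55 ± 0.38, SE, adjusted p = 0.0161). Its log2 fold change was -3.23 without TAC 2 and -2.06 without TAC 1. The sources used here do not give the hour at which hearts were taken.

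**Figure D5:**
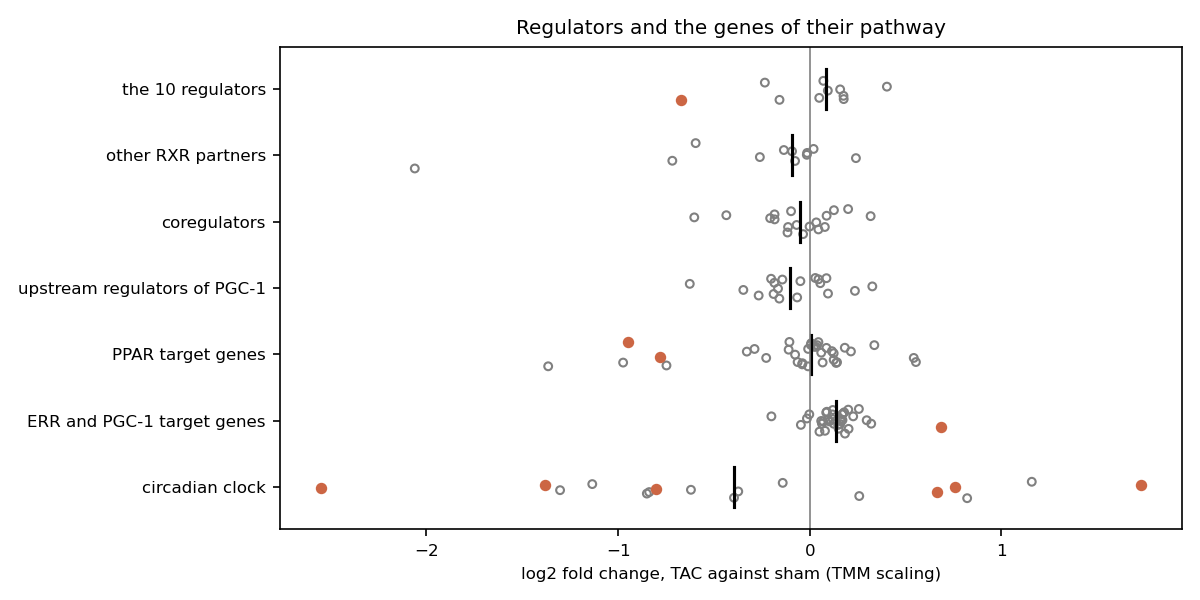
Each point is a tested gene of the list named on the left, placed by its log2 fold change of TAC against sham (TMM scaling), filled where the edgeR adjusted p was under 0.05, with the list's median as a black line. Of the ERR and PGC-1 target genes 30 lie above 0 and Vegfa alone is filled, and the circadian genes spread from -2.55 to 1.73.

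Genes with the pattern most like that of the coactivators over the 4 libraries were sought among the 8491 genes whose mean was 5 CPM or more, by the distance between centred log2 CPM values. Nearest to Ppargc1b were Btbd3 (distance 0.0855), Notch2 (0.0859) and Cep128 (0.0913), and 150 genes lay within 0.25. Notch2, a receptor for ligands on neighbouring cells, had 12.1 and 10.98 CPM in sham and 7.25 and 7.16 in TAC. Nearest to Ppargc1a were Dhx32 (0.0181), Chchd4 (0.0240) and Xrcc6 (0.0245), with 1413 genes within 0.25, so that its pattern was a common one. Chchd4, which takes part in protein import into mitochondria, had 14.03 and 15.8 CPM in sham and 21.4 and 18.7 in TAC. These distances describe 4 libraries and carry no test.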

How the data were processed

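RNA was sequenced by the authors from isolated mouse cardiomyocytes, 2 sham and 2 TAC libraries, with groups and replicate numbers taken from the sample titles. The submitters' processing notes name Bowtie2 2.2.8, StringTie 1.3.1 and the build mm10, without their roles. The sources used here name neither the counting program nor its use of strand. Per library the authors deposited expected counts (estimated counts per gene) and FPKM (fragments per kilobase of transcript, scaled by depth). Between 1432 and 1519 genes per library had counts that were not whole, none of them among the 10 regulators. No gene symbol was given for 16 genes.

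Expected counts were rounded and analysed in R 4.3.3 with edgeR 4.0.16 (filterByExpr, TMM, glmQLFit and glmQLFTest, no block), TAC against sham, in place of the t-test named by the study. Benjamini-Hochberg adjustment ran over 12499 genes, and an adjusted p under 0.05 was called. A standard error is the log2 fold change divided by the square root of F. The common biological coefficient of variation was 10.5%, and totals of 24237777 to 32118323 counts set the precision. With 2 libraries a group an exact permutation p cannot go below 0.333, so the p of a gene leans on the variation that edgeR shares across genes. P-values measure the spread between these libraries, which come from separate hearts.

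Alternatives were DESeq2 1.42.0, scaling by totals with and without the 13 mitochondrial genes, no filter, limma 3.58.1 on log2(FPKM + 1) and log2(FPKM + 0.1) and on genes with a mean FPKM over 2, the replicate number as a block, other thresholds and leaving out each library. Positions and exon lengths came from GENCODE M21 (GRCm38), and promoters from RefSeq.

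The regulators and lists were chosen with earlier results of these data known. Named genes were all 10 regulators, the called genes of each pathway list (the 4 largest changes where more than 4 were called, the 2 largest where none was), the first 3 genes of each cell type list, the 4 TAC response genes and the 3 genes nearest in pattern to the regulator with the lowest adjusted p in each direction. A gene of the PPAR target list is counted there but not reported by name.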

Additional observations from a re-analysis of the deposited data

How the results depend on the processing

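With 2 libraries a group, small changes could not be resolved, and calls near the threshold moved with the processing. The cause was not tested for any result named here. Over all genes the count of calls went from 626 to 1676 without a filter, 214 and 195 by limma on log2(FPKM + 1) and log2(FPKM + 0.1), 92 at an adjusted p under 0.01 and 1817 at an adjusted p under 0.1, and it ranged from 301 (without TAC 1) to 1336 (without TAC 2) when a library was left out. Calls of lower genes went from 304 to 477 with DESeq2, 969 without a filter, 145 and 127 by limma on FPKM, 22 and 939 at the other thresholds, and 118 to 776 with a library left out. Regulators called numbered 2 with DESeq2, without a filter and at an adjusted p under 0.1, 0 by limma on FPKM (both pseudocounts) and at 0.01, and 0 to 1 with a library left out.

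Ppargc1a passed the threshold with DESeq2 and without a filter (log2 fold change 0.40 in both, adjusted p 0.0121 and 0.00977), and its log2 fold change was 0.30 to 0.50 with a library left out. Ppargc1b did not pass by limma on log2(FPKM + 1) (-0.59) or log2(FPKM + 0.1) (-0.82), though it passed on genes with a mean FPKM over 2 (-0.59, adjusted p 0.0486), nor with any library left out (-0.74 to -0.60). With total-count scaling the sign turned for Ppard (-0.02), Pparg (-0.12), Esrra (-0.10), Esrrb (-0.03), Esrrg (-0.14) and Rxrg (-0.01), and with totals that leave out mitochondrial genes for Pparg (-0.03), Esrra (-0.01) and Esrrg (-0.05). By limma on log2(FPKM + 1), with and without the minimum FPKM, it turned for Pparg (-0.04), Esrra (-0.12), Esrrb (-0.03), Esrrg (-0.15) and Rxrg (-0.01). At log2(FPKM + 0.1) the values were -0.06 for Pparg, -0.12 for Esrra, -0.03 for Esrrb, -0.16 for Esrrg and -0.01 for Rxrg. Leaving out a library gave ranges of -0.31 to 0.01 for Ppara, -0.14 to 0.33 for Pparg, -0.03 to 0.21 for Esrra, -0.02 to 0.13 for Esrrg and -1.33 to 0.00 for Nr4a1.

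Genes called in the other lists changed as follows. RXR partners had 2 without a filter, 1 by limma at either pseudocount and 0 to 2 with a library left out. Coregulators had 2 with DESeq2 and without a filter, and 0 to 2 with a library left out. Upstream regulators had 1 with either total scaling, without a filter and by limma above the minimum FPKM, and 0 to 1 with a library left out. PPAR targets had 5 with DESeq2, 8 without a filter, 1 by limma at either pseudocount, 6 above the minimum FPKM and 4 to 7 with a library left out. ERR and PGC-1 targets had 2 with DESeq2 and without a filter, 0 with either total scaling and by limma at either pseudocount, and 0 to 1 with a library left out. Clock genes had 13 without a filter, 3 by limma at either pseudocount and 4 to 13 with a library left out. Ranked by counts per kilobase of annotated exon, Ppara came 1 and Ppard 2 among the PPARs in TAC, the reverse of their order by FPKM.

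The labels do not say that a replicate number marks a shared pair. Deviations from the group means correlated at r = -0.242 across genes for libraries of the same number and at 0.242 for the crossed ones. With 2 libraries a group these must be opposite, so they do not settle the pairing. With the replicate number as a block, 566 genes and 0 regulators were called, Ppargc1b had a log2 fold change of -0.67 (adjusted p 0.0613), and RXR partners had 1 call, coregulators 1 and PPAR targets 5. The crossed pairing, added after seeing the data, called 2131 genes, 1163 of them lower, and 2 regulators, with Ppargc1a at 0.40.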
